A study of Mus musculus with 6 samples.

Results

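The genes that license replication origins were examined in PRO-seq data of muscle stem cells (MuSCs). They are the 6 subunits of the origin recognition complex (*Orc1* to *Orc6*), the loaders *Cdc6* and *Cdt1*, and *Gmnn*, which encodes geminin, the inhibitor of CDT1. They were taken by symbol, all 9 were found among the 14546 genes listed, and all 9 passed the filter on low values, so none is left out below. PRO-seq maps engaged RNA polymerases: nuclei are allowed to add biotin-labelled nucleotides to the RNA that is being made, and the labelled RNA is sequenced. The libraries came from proliferating MuSCs of 3 Ctrl samples (genotype Pax7CreERT/Suv4-20h1WT) and 3 Kmt5b sKO samples (genotype Pax7CreERT/Suv4-20h1KO); *Suv4-20h1* is an older name of *Kmt5b*. Mice of both groups were young adults on a C57BL/6 background and carried Pax7CreERT, which acts in cells that express *Pax7* once tamoxifen is given. The paper describes tamoxifen injections for mice of both groups. In the Kmt5b sKO mice both *Kmt5b* alleles were floxed, and in the Ctrl mice both were wild type, so both genotypes share the Cre driver. The cells were isolated with magnetic beads and expanded in culture, so the values describe cultured cells and not MuSCs in muscle, and deletion can only be expected in cells in which Cre was active. Whether a library came from 1 mouse or several is not given in the labels.

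An origin is licensed before S-phase, when the origin recognition complex binds DNA, recruits CDC6 and CDT1, and loads the ring-shaped MCM helicase. ORC2 to ORC5 form the stable core of the complex, ORC1 cycles on and off chromatin in many cells, and ORC6 helps to complete the loading. Geminin binds CDT1 from S-phase on and so keeps an origin from being licensed again. ORC1 carries a BAH domain that binds histone H4 dimethylated at lysine 20 (H4K20me2), the mark that KMT5B makes from the monomethylated form, which is the link between these genes and the deleted enzyme. *Orc1*, *Cdc6*, *Cdt1* and *Gmnn* are known as genes whose transcription follows the cell cycle, in large part through E2F factors. These statements are background and were not tested here.

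The RefSeq promoter windows (GRCm38.p6, 250 bases before to 50 after a start) are therefore shown for the members in which an E2F-type word stands before the start. Of the 9 members 8 had a window. *Gmnn* had none, so its promoter was not searched. The words searched on both strands were TTCCCGC and TTCGCGC, and further TTGCCGC and also TTGGCGC. A match was found for *Orc1*, *Orc3*, *Orc4*, *Cdc6* and *Cdt1*, that is in 5 of 8 windows, and in 1636 of 9564 windows of tested genes (17.1%). It began 27 bases before the start in *Orc1*, 40 in *Orc3*, 140 in *Orc4* and 138 in *Cdc6*, and in *Cdt1* there were 2 matches, at bases 19 and 34 of the transcript. CCAAT was found in *Orc1*, *Orc2* and *Orc6* (38.6% of the windows of tested genes), GGGCGG in 6 of 8 members (65.4%), and TTTGAA in 0 of 8 (11.4%). In *Orc4* the E2F-type word overlaps a GGGCGG. The bases nearest to each start follow from 5′ to 3′ on the gene's own strand, with the E2F-type word in capitals; each stretch ends at the base before the RefSeq start and was stopped where it would have held more than 30 bases of an annotated exon.
Orc1 (chr4:108579424-108579453, plus strand): gtgGCGCGAAaagttttctcctgtgccttc
Orc3 (chr4:34614943-34614984, minus strand): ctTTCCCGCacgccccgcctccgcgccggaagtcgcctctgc
Orc4 (chr2:48949268-48949517, minus strand): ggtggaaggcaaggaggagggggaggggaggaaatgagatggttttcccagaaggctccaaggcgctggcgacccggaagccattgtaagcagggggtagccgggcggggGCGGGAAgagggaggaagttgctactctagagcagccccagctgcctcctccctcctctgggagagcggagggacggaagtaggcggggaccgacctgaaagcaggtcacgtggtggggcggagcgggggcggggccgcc
Cdc6 (chr11:98907952-98908150, plus strand): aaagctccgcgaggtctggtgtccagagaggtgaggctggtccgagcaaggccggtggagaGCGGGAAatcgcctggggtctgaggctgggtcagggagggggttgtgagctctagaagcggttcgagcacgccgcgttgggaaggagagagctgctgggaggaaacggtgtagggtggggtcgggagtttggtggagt

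Of the members that hold such a word, *Orc1* and *Cdc6* were called in the gene body below, and *Orc3*, *Orc4* and *Cdt1* were not. *Gmnn*, which was called, had no window. *Orc2*, *Orc5* and *Orc6* had no match and were not called by limma. Whether the words bear on the changes was not tested. The RefSeq start of *Cdc6* lies 350 bases downstream of the start listed in the data, inside its TSS region. The starts of *Orc1*, *Orc2* and *Cdt1* are the same in both, and those of *Orc3*, *Orc4*, *Orc5* and *Orc6* differ by 2, 9, 37 and 57 bases. A match is a string of letters and shows no binding.

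For each gene the deposited data give a TSS value, over the first 400 nt, and a gene body value over the rest of the transcript. The TSS value is in RPM, here the reads of a TSS region relative to a total of TSS reads in its library. The gene body value is in TPM, which is also divided by length. All TSS regions have the same length, so levels can be compared between genes in both regions. Whole reads could be recovered behind the values. The listed genes held 7425432 to 16249143 gene body reads and 926904 to 3246052 TSS reads per library, and the Kmt5b sKO libraries were shallower in the gene body than the Ctrl libraries. Behind the members' values stood 43 to 2391 gene body reads and 18 to 793 TSS reads. The fewest gene body reads were those of *Gmnn* and the fewest TSS reads those of *Orc1*, and counting error is largest there. For *Kmt5b* itself the log2 fold change was 0.14 in the gene body and 0.27 in the TSS region (limma adjusted p = 0.71 and 0.72). It was thus not lower in the libraries labelled Kmt5b sKO, and here the genotype rests on the labels. These values cover the whole gene and not the floxed part alone, so they cannot decide whether that part was deleted. The paper reports a strong fall of H4K20me2 in *Kmt5b*-deficient MuSCs, seen by Western blot and by immunofluorescence. The values were tested as log2(value + 0.5) with limma over 12451 autosomal genes, and a gene is named as called where the p-value, adjusted by Benjamini-Hochberg, was under 0.1. On this scale the change of a low gene is understated. All p-values measure the spread between the 3 libraries of a genotype.

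In the gene body, 3 of the 9 licensing genes were called lower in Kmt5b sKO MuSCs, *Gmnn*, *Cdc6* and *Orc1*, and 0 were called higher. Over all tested genes 1.38% were called lower and 1.61% higher. All 9 estimates were below 0, with a median log2 fold change of -0.54, against 0.023 over all tested genes. At an unadjusted p under 0.05 there were 4 members, and 15.9% of all tested genes in either direction. The 3 Kmt5b sKO libraries lay below all 3 Ctrl libraries for 5 members (*Orc1*, *Orc2*, *Orc6*, *Cdc6* and *Gmnn*), as they did for 9.34% of tested genes, and above them for none, as they did for 12.0%. On the recovered reads edgeR and DESeq2 each called 4 members, all lower, the same 3 and *Orc6*, where edgeR called 6.01% of genes in either direction and DESeq2 10.4%. In bulk libraries, fewer cells of a type and less RNA per cell cannot be told apart, and this holds for every value below. General markers of proliferation moved in the same direction, as given further on.

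**Figure D1:**
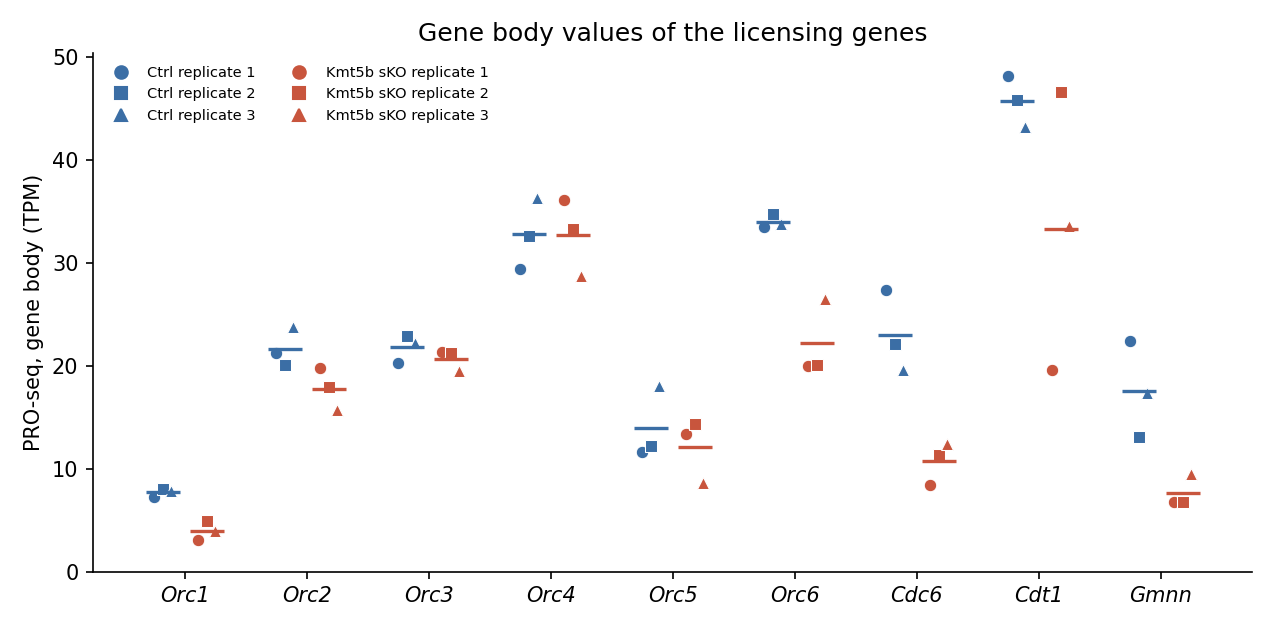
Gene body values in TPM (y axis, linear) of the 9 licensing genes (x axis) in the 3 Ctrl and 3 Kmt5b sKO libraries; points are libraries and bars are group means. The groups are apart for Orc1, Orc2, Orc6, Cdc6 and Gmnn, and lie on each other for Orc3 and Orc4.

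*Orc1*, the subunit that reads H4K20me2, spans bases 108579454 to 108614833 of chromosome 4 (GRCm38, plus strand), with 17 exons in the listed transcript. In replicates 1 to 3, here and in the rest of the text in this order, the Ctrl libraries gave 7.29, 8.06 and 7.82 TPM over its gene body, and the Kmt5b sKO libraries gave 3.14, 4.93 and 3.99 TPM. The groups did not overlap, and the distance between them was larger than the spread within either. The log2 fold change was -0.88 (SE 0.19, limma adjusted p = 0.087). *Orc1* had the lowest gene body level of the 9 genes in both genotypes, at the 27.0th percentile of tested genes in Ctrl. At its TSS the Ctrl libraries gave 26.4, 10.3 and 21.4 RPM, against 8.85, 13.2 and 14.3 RPM in the Kmt5b sKO libraries. Ctrl replicate 2, the shallowest Ctrl library with 18 TSS reads at this gene, lay among the Kmt5b sKO libraries, and the TSS log2 fold change of -0.59 had a 95% interval from -1.35 to 0.18 (limma adjusted p = 0.63). It was -0.97 without Ctrl replicate 2 and -0.32 without Ctrl replicate 1.

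The 4 subunits of the ORC core did not pass the test in either region. *Orc2* (chromosome 1, 58462771 to 58505109, minus strand) gave 21.2, 20.1 and 23.8 TPM in the Ctrl gene bodies and 19.8, 17.95 and 15.7 TPM in those of the Kmt5b sKO. Its groups were apart by a small step only, and the log2 fold change of -0.28 had an interval from -0.61 to 0.052 (limma adjusted p = 0.41). *Orc3* (chromosome 4, 34570796 to 34614944, minus strand) gave 20.3, 22.9 and 22.2 TPM in Ctrl, against 21.4, 21.3 and 19.6 TPM. The groups overlapped, and its interval, -0.36 to 0.21, was the narrowest of the 9. In *Orc4* (chromosome 2, 48902824 to 48949276, minus strand) 29.5, 32.6 and 36.3 TPM in Ctrl stood against 36.1, 33.3 and 28.8 TPM. The 2 groups covered the same range, with a log2 fold change of -0.0037 and an interval from -0.34 to 0.33. *Orc5* (chromosome 5, 22486489 to 22550375, minus strand) had 11.7, 12.2 and 18.0 TPM against 13.4, 14.4 and 8.62 TPM. The highest and the lowest of these 6 values came from replicate 3 of either genotype, and the interval of the log2 fold change (-0.20) ran from -0.78 to 0.38. A fall of *Orc5* as large as that of *Cdc6* thus lay outside the interval, while a fall of the size of *Orc6* did not. An annotated snRNA gene lies on the same strand within *Orc2* and *Orc5*, and a processed pseudogene within *Orc5*; reads from these would be counted with the host gene.

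*Orc6*, the subunit with the shortest gene (chromosome 8, 85299689 to 85308278, plus strand), stood between the core and *Orc1*. The Ctrl libraries were close together over its gene body, at 33.5, 34.8 and 33.8 TPM (SD 0.66, n = 3), and the Kmt5b sKO libraries gave 19.99, 20.1 and 26.5 TPM. All 3 lay below the Ctrl libraries, and the log2 fold change of -0.62 (standard error 0.15) just missed the threshold (limma adjusted p = 0.11). It passed with edgeR (adjusted p = 0.089) and with DESeq2 (adjusted p = 0.022). At the TSS 64.9, 39.1 and 47.6 RPM in Ctrl overlapped with 35.4, 31.7 and 41.9 RPM in the Kmt5b sKO. The start of *Vps35*, on the opposite strand, overlaps that of *Orc6*, and the authors counted sense reads only.

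Within each library the share of *Orc1* in the summed gene body TPM of the 6 subunits was 5.91%, 6.17% and 5.51% in Ctrl, and lower, at 2.76%, 4.40% and 3.87%, in each Kmt5b sKO library. Such a share does not depend on the scaling of a library. The share of *Orc6* was 23.8% to 27.1% in Ctrl and 17.6% to 25.7% in Kmt5b sKO libraries, and the groups overlapped. *Orc2* to *Orc5* together held 67.0% to 70.7% in Ctrl and 70.4% to 79.7% in Kmt5b sKO libraries, again with overlap. The summed value itself was 123 to 142 TPM in Ctrl and 103 to 114 TPM in Kmt5b sKO libraries. These are levels of nascent transcription, not of protein, and the shares were not tested.

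*Cdc6*, the ATPase that recruits the helicase together with CDT1, lies on the plus strand of chromosome 11 from 98907801 to 98923936, with 12 exons. Over its gene body the Ctrl libraries gave 27.4, 22.1 and 19.7 TPM, against 8.46, 11.4 and 12.5 TPM in the Kmt5b sKO. Even the lowest Ctrl library stood well above the highest Kmt5b sKO library, and the log2 fold change was -1.07 (SE 0.19, limma adjusted p = 0.069), a 2.10-fold difference. The TSS region moved by a like amount, from 54.0, 27.0 and 25.4 RPM in Ctrl to 7.87, 19.8 and 21.6 RPM. The groups did not overlap there either, but they nearly met, and the log2 fold change of -1.12 with an SE of 0.37 did not pass (limma adjusted p = 0.18). Both the highest value, Ctrl replicate 1, and the lowest, Kmt5b sKO replicate 1, carried much of it. Without Kmt5b sKO replicate 1 the TSS log2 fold change was -0.68.

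*Cdt1*, the partner of CDC6 in loading and the target of geminin, had the highest gene body level of the 9 genes in Ctrl MuSCs. It lies on the plus strand of chromosome 8 from 122568015 to 122573128, and its gene body of 4713 nt is the shortest of the 9. Ctrl MuSCs gave 48.2, 45.9 and 43.2 TPM, and Kmt5b sKO MuSCs 19.7, 46.7 and 33.6 TPM. The Ctrl libraries were close together and the Kmt5b sKO libraries far apart: replicate 2 reached the Ctrl level and replicate 1 had less than any other library. The log2 fold change of -0.54 had an interval from -1.20 to 0.13 (limma adjusted p = 0.43). Left out in turn, these 2 libraries moved it to -0.82 (without replicate 2) and -0.20 (without replicate 1). In the TSS region 105, 81.0 and 118 RPM in Ctrl stood against 43.9, 66.0 and 79.1 RPM in Kmt5b sKO libraries. These groups did not overlap, with a log2 fold change of -0.70 (SE 0.24, limma adjusted p = 0.22). *Gm20388*, annotated on the same strand, overlaps *Cdt1*, and its reads cannot be told apart from those of *Cdt1*.

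*Gmnn*, the geminin gene, was the member called in both regions. Its estimates lay below those of *Cdc6* by less than the larger of the SEs of these genes in either region. It lies on the minus strand of chromosome 13 from 24751845 to 24761923, with 7 exons. Ctrl gene bodies gave 22.4, 13.1 and 17.4 TPM, and those of the Kmt5b sKO 6.79, 6.78 and 9.53 TPM. All Kmt5b sKO values were below the lowest Ctrl value, from Ctrl replicate 2, and the log2 fold change was -1.13 (SE 0.23, limma adjusted p = 0.080). At the TSS, 128, 70.7 and 68.0 RPM in Ctrl stood against 24.9, 34.3 and 31.7 RPM in the Kmt5b sKO. The Kmt5b sKO libraries were close together and well below the lowest Ctrl library, with a log2 fold change of -1.49 (SE 0.26, limma adjusted p = 0.029), a 2.80-fold difference. The ratio of *Cdt1* to *Gmnn* in the TSS region was 0.817, 1.15 and 1.73 in Ctrl, against 1.76, 1.92 and 2.49, so the groups were just apart. In the gene body the same ratio was 2.15 to 3.51 in Ctrl and 2.90 to 6.88 in Kmt5b sKO libraries, and the groups overlapped.

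The gene body calls did not pass in most sets of 5 libraries. With Ctrl replicate 1 or any Kmt5b sKO replicate left out, 0 members passed in limma, as did 0 of all 12451 genes; 4 to 5 members still had an unadjusted p under 0.05. When Ctrl replicate 2 was left out only *Gmnn* passed (adjusted p = 0.085), and without Ctrl replicate 3 the same 3 members passed as with all libraries. The log2 fold change moved less: with 1 library left out it ranged from -1.18 to -0.91 for *Cdc6*, from -1.32 to -0.94 for *Gmnn*, and from -1.02 to -0.73 for *Orc1*.

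In the TSS region 1 of 9 members was called lower (*Gmnn*), where 0.731% of all tested genes were called lower and 0.932% higher. At an unadjusted p under 0.05 there were 3 members (*Cdc6*, *Cdt1* and *Gmnn*), and 11.0% of all tested genes. The Kmt5b sKO libraries lay below the Ctrl libraries for the same 3 members, as for 5.33% of tested genes, and above them for 0 members, as for 10.2%. On the recovered reads edgeR and DESeq2 also called 1 member, *Gmnn*, where they called 2.24% and 2.37% of genes in either direction. The median log2 fold change was -0.45, against 0.081 over all tested genes, and 6 estimates were below and 3 above 0. The 3 above 0 were *Orc3*, *Orc4* and *Orc5*. *Orc3* gave 78.9, 98.8 and 72.4 RPM in Ctrl, against 122, 92.5 and 119 RPM, and the groups overlapped through Kmt5b sKO replicate 2 (log2 fold change 0.41, limma adjusted p = 0.53). For *Orc5* the 85.5, 90.8 and 150 RPM of Ctrl stood against 112, 120 and 125 RPM. For *Orc4* they were 59.3, 51.7 and 36.4 RPM against 52.8, 54.2 and 42.3 RPM. *Orc2*, below 0, gave 83.3, 76.4 and 111 RPM against 78.7, 84.5 and 69.9 RPM. In all 3 of these genes the groups overlapped. The call of *Gmnn* was lost without Ctrl replicate 1 and without Kmt5b sKO replicate 1, with log2 fold changes between -1.65 and -1.19 over all libraries left out in turn and adjusted p up to 0.22.

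**Figure D2:**
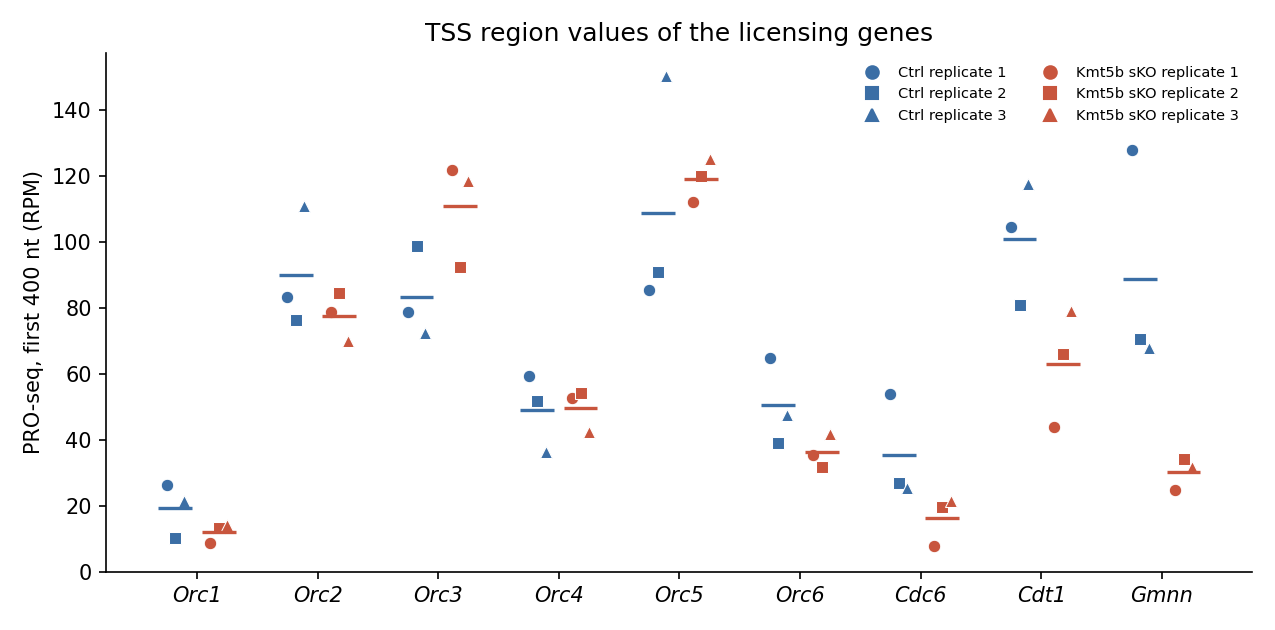
TSS values in RPM over the first 400 nt (y axis, linear) of the 9 licensing genes (x axis) in the 3 Ctrl and 3 Kmt5b sKO libraries; points are libraries and bars are group means. The groups are apart for Cdc6, Cdt1 and Gmnn, and the order of the genes differs from that in the gene body, with Orc5 at the top.

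**Figure D3:**
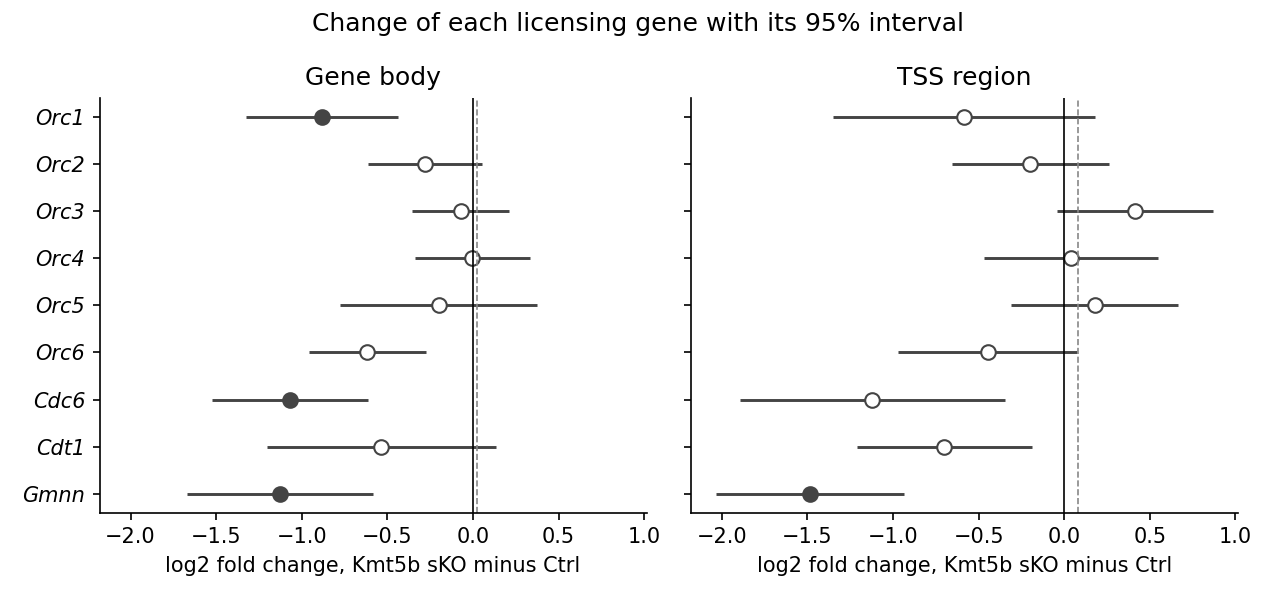
Log2 fold change, Kmt5b sKO minus Ctrl, of each licensing gene in the gene body (left) and the TSS region (right), with the 95% interval from limma as a line; filled points passed an adjusted p under 0.1 and the dashed line is the median over all 12451 tested genes. Gmnn is filled in both panels, Cdc6 and Orc1 in the gene body, and Orc3 and Orc4 lie near 0 in the gene body.

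A change of the total itself cannot be seen in values that are scaled to it. With each library's uniquely mapped reads as the total, the median of all genes moved to -1.06 in the gene body and -1.05 in the TSS region, and all members to values below 0. The study lists more uniquely mapped reads for most Kmt5b sKO libraries, while their reads in the listed gene bodies were fewer. This scaling thus follows the share of mapped reads counted in these genes, and what set that share was not tested. Relative to the median of all genes under this scaling the gene body changes were -1.14 for *Gmnn*, -1.10 for *Cdc6*, -0.85 for *Orc1* and -0.061 for *Orc4*. The order of the members in the gene body was thus kept for these 4 genes. In the TSS region, *Orc3* and *Orc5* stayed above the median of all genes, by 0.29 and 0.052, and *Orc4* lay below it, by -0.079.

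The order of the gene body levels differed between the genotypes. In Ctrl MuSCs it ran from *Cdt1* (45.7 ± 2.5 TPM, SD, n = 3) over *Orc6* (34.0 ± 0.66), *Orc4* (32.8 ± 3.4), *Cdc6* (23.0 ± 3.9), *Orc3* (21.8 ± 1.3), *Orc2* (21.7 ± 1.9), *Gmnn* (17.6 ± 4.7) and *Orc5* (14.0 ± 3.5) to *Orc1* (7.72 ± 0.39). The libraries of *Orc6* and *Orc4* overlapped, as did those of each pair of neighbours from *Cdc6* down to *Orc5*, and *Cdt1* and *Orc1* stood apart at the 2 ends. In Kmt5b sKO MuSCs *Cdc6* (10.8 ± 2.1 TPM) and *Gmnn* (7.70 ± 1.6) ranked below *Orc2* (17.8 ± 2.0) with no overlap. *Cdt1* (33.3 ± 13.5) was no longer apart from *Orc4* (32.7 ± 3.7), and *Orc1* (4.02 ± 0.90) was again the lowest, with no overlap with *Gmnn*.

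The pausing index, which divides the TSS value by that of the gene body in the same library, relates polymerases near the start to those further along. Each region is scaled to its own total, so a shift between the regions that most genes share cannot show in the index. Its median over all genes was 1.47 to 1.61 in the libraries. From recovered reads per nt, which are not scaled so, the median log2 fold change over all genes was 0.0056. The read totals differed widely within Ctrl, however. Replicate 2 held 1066287 TSS and 13582444 gene body reads, and replicate 3 held 3246052 and 14241089. With this spread the median cannot decide whether such a shift exists. The index passed the test for 0 of 9 members and for 0 of 11698 genes with values above 0 throughout (0.00%, limma). No other tool was run. Of all genes 9 passed when the index was taken from recovered reads per nt, and 1 passed with a pseudocount of 0.5 in both regions, none of them a member. At an unadjusted p under 0.05 there were 0 members and 3.86% of all genes. The members spanned a wide range. *Orc5* had the highest index, 7.33, 7.42 and 8.34 in Ctrl against 8.37, 8.35 and 14.5, at the 97.2nd percentile of genes in Ctrl. *Gmnn* followed in Ctrl with 5.72, 5.41 and 3.92, against 3.67, 5.06 and 3.33 in Kmt5b sKO libraries. *Orc2* had 3.81 to 4.65 in Ctrl and 3.98 to 4.71 in Kmt5b sKO libraries.

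At the other end *Orc4*, *Orc6* and *Cdc6* had indices of 0.93 to 2.01 over both genotypes, at the 47.8th to 49.3rd percentile of genes in Ctrl, and *Cdt1* had 1.42 to 2.72. *Orc1* ranged from 1.28 to 3.62 within Ctrl alone, wider than in the Kmt5b sKO libraries (2.68 to 3.57). The Kmt5b sKO libraries lay above the Ctrl libraries for 2 members, *Orc3* (3.26 to 4.31 against 4.35 to 6.07) and *Orc5*, as they did for 5.93% of genes. The log2 fold changes of the index were 0.49 for *Orc3* (interval -0.056 to 1.03) and 0.39 for *Orc5* (interval -0.26 to 1.03). Without Kmt5b sKO replicate 3 the latter was 0.12. Those of *Orc1* and *Gmnn* were 0.36 and -0.32. For these 2 genes the intervals, -0.49 to 1.21 and -0.92 to 0.27, include 0.

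**Figure D4:**
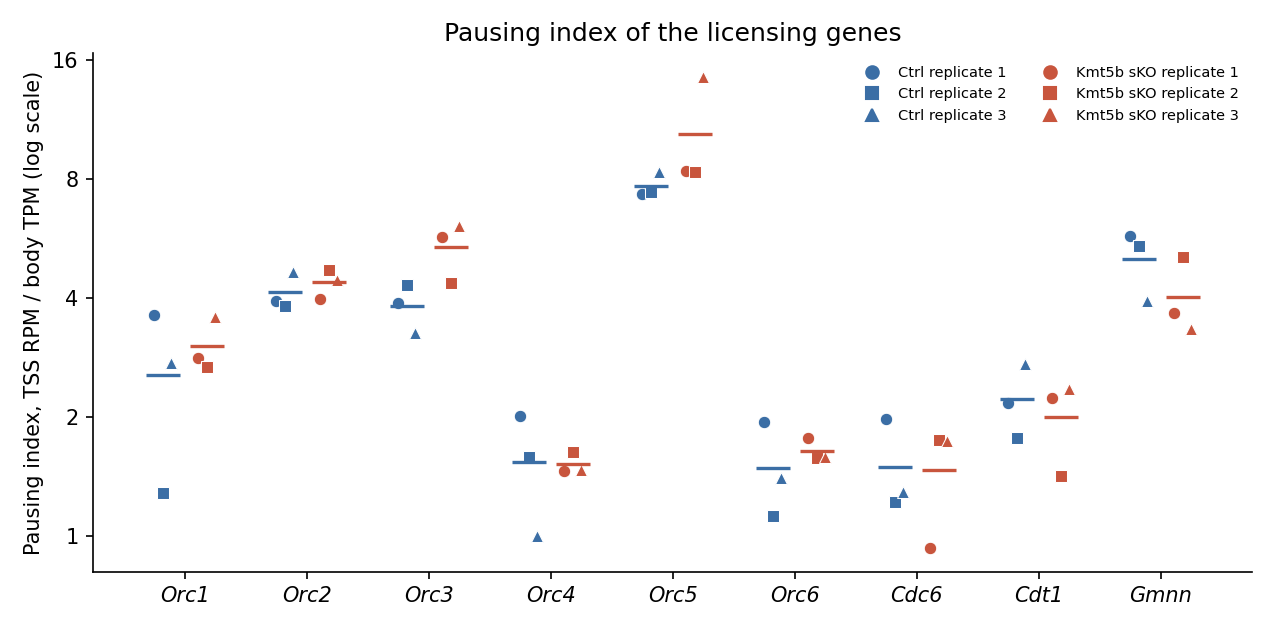
Pausing index, TSS RPM over gene body TPM (y axis, log scale), of the 9 licensing genes (x axis) in the 3 Ctrl and 3 Kmt5b sKO libraries; points are libraries and bars are group means. Orc5 has the highest index in both genotypes, and the groups overlap for all genes but Orc3 and Orc5.

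The pathway around licensing was followed with lists of genes. For the list counts below, limma called 1.38% of all tested genes lower in the gene body and 0.731% in the TSS region. In either direction edgeR called 6.01% and 2.24%, and DESeq2 10.4% and 2.37%. In limma an unadjusted p under 0.05 was found for 15.9% and 11.0%. Of the MCM helicase, the ring that the members load (*Mcm2* to *Mcm7* and the MCM-binding protein *Mcmbp*), 3 of 7 were called lower in the gene body and 2 of 7 in the TSS region, and 0 higher (in the gene body 4 by edgeR and 5 by DESeq2, and 2 by each in the TSS region). All 7 gene body estimates were below 0, with a median of -0.92. *Mcm5* was called in both regions, with log2 fold changes of -1.28 and -1.27. *Mcm3* (-0.98) and *Mcm6* (-0.76) passed in the gene body, and *Mcm7* (-1.09) in the TSS region.

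Of 13 origin firing genes, which turn the loaded helicase into an active one, 5 were called lower in the gene body and 0 in the TSS region by limma, where 12 and 7 had an unadjusted p under 0.05. In the gene body edgeR called 7 and DESeq2 12, and in the TSS region each called 2. The median was -0.76 in the gene body. The largest changes among those called were those of *Gins1* (-1.13), a subunit of the GINS complex, *Ticrr* (-1.03), *Recql4* (-0.99) and *Mcm10* (-0.93). Of 14 genes of the machinery that degrades or holds back the loaders and drives S-phase, 5 were called lower in the gene body and 4 in the TSS region by limma, and the median was -0.69 in the gene body. Here edgeR called 7 in the gene body and DESeq2 8, and each called 5 in the TSS region. *Ccna2*, encoding cyclin A2, had a gene body log2 fold change of -1.31, *Fbxo5*, an inhibitor of the anaphase-promoting complex that protects geminin, one of -1.04, and *Dtl*, which directs CDT1 to degradation, one of -0.91; all 3 passed in both regions. *Ccne1*, encoding cyclin E1, passed in the TSS region (-1.10). The general ubiquitin ligase subunits *Skp1a*, *Cul1*, *Cul4a* and *Ddb1* had gene body values of 0.16, 0.094, -0.047 and 0.19, and none passed.

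Of the 4 genes that tie ORC to chromatin, 0 were called in either region by limma, edgeR or DESeq2, with 0 in the gene body and 1 in the TSS region at an unadjusted p under 0.05. *Lrwd1*, which binds ORC, had a gene body log2 fold change of -0.14. *Kat7*, the acetyltransferase that acts at origins with CDT1, had one of -0.16. *Kmt5a* and *Kmt5c*, the enzymes that make the mono- and trimethylated forms of the same histone residue, had -0.22 and -0.37, with standard errors of 0.13 and 0.35.

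General markers of proliferation moved with the licensing genes. All 15 had gene body and TSS estimates below 0, with medians of -0.88 and -1.02, and 5 were called lower in the gene body and 6 in the TSS region by limma. On the recovered reads edgeR called 13 in the gene body and 9 in the TSS region, and DESeq2 14 and 9. Among those called by limma were *Bub1* (-1.44 in the gene body), *Pcna* (-1.23), *Uhrf1* (-1.20) and *Top2a* (-1.12). Their summed gene body level was 810 to 1081 TPM in Ctrl and 513 to 578 TPM in Kmt5b sKO libraries. The paper measured the cell cycle of cultured MuSCs by flow cytometry. It reports no significant change in the shares of cells in S-phase or before it, and slightly more cells past it. It also reports reduced expansion of *Kmt5b*-deficient MuSCs. The part of a changed number of cycling cells in the values of the licensing genes was not tested here.

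**Figure D5:**
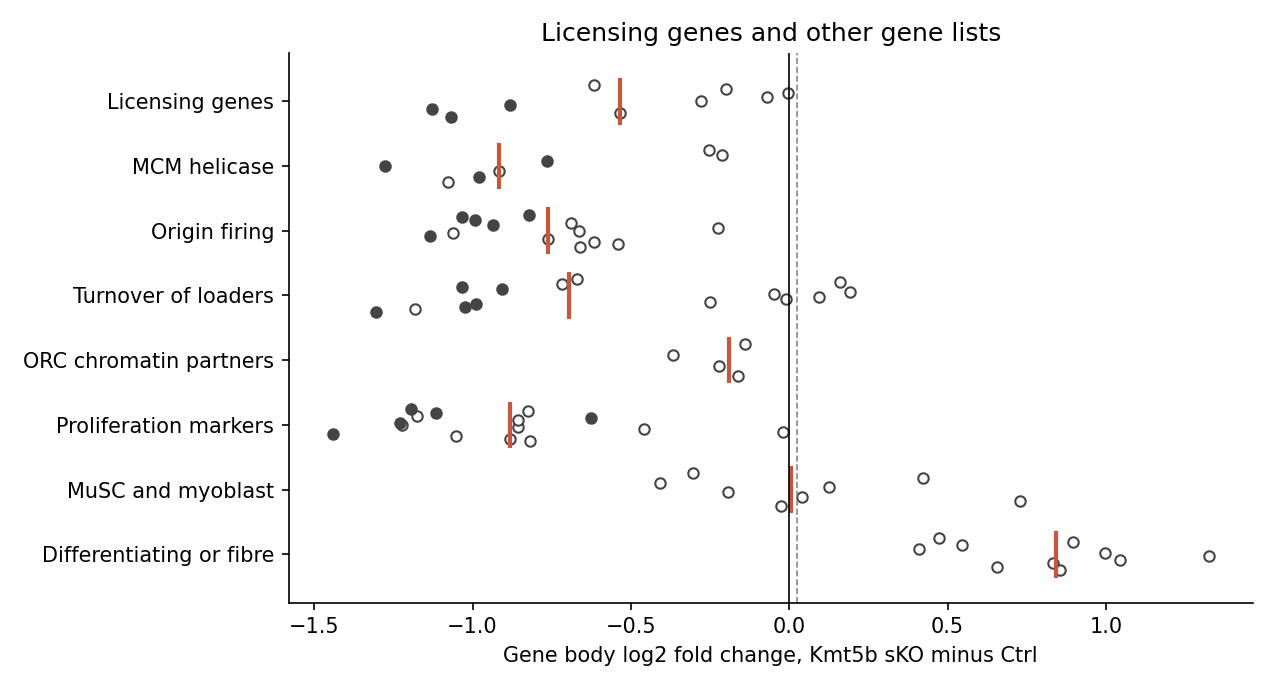
Gene body log2 fold change, Kmt5b sKO minus Ctrl (x axis), of the tested genes of each list (rows); points are genes, filled where the adjusted p was under 0.1, red bars are list medians and the dashed line is the median over all tested genes. The medians of the replication and proliferation lists lie between -0.92 and -0.54, with 3 of the 14 turnover genes above 0, that of the 4 ORC partners lies at -0.19, and that of the differentiation genes at 0.84.

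Markers of other cell states and types were set beside these values. The 8 MuSC and myoblast markers had a median of 0.0058 in the gene body, 0 were called by limma or edgeR (1 by DESeq2 and 1 at an unadjusted p under 0.05 in limma), and their summed level overlapped between genotypes (1574 to 2308 TPM in Ctrl and 2077 to 2790 TPM in Kmt5b sKO libraries). *Myod1* and *Pax7*, which define myoblasts and MuSCs, had 855 to 1328 and 25.5 to 53.7 TPM over all 6 libraries. Of 13 markers of differentiating muscle cells or fibres 10 were tested, all 10 estimates were above 0 in the gene body, and 0 were called by limma (5 at an unadjusted p under 0.05, with 2 called by edgeR and 3 by DESeq2). Their summed level was 1556 to 3292 TPM in Ctrl and 3474 to 4889 TPM in Kmt5b sKO libraries, without overlap. It moved opposite to the licensing genes, and its part in their values was not tested. None of these 13 was at 0 in all libraries; *Myog*, an early regulator of differentiation, had 382 to 925 TPM in Ctrl and 790 to 1105 TPM in the Kmt5b sKO.

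Markers of other cell types were at these levels. The 3 endothelial genes listed (*Pecam1*, *Cdh5* and *Tek*) summed to 2.50 to 4.23 TPM in Ctrl and 4.38 to 5.05 TPM in Kmt5b sKO libraries. Of the fibro-adipogenic markers 4 of 6 were listed, with 46.7 to 72.4 TPM in Ctrl and 49.7 to 55.5 TPM in Kmt5b sKO libraries, mostly from *Col3a1*. Of 5 macrophage markers only *Cd68* was listed (214 to 402 TPM in Ctrl and 319 to 326 TPM in Kmt5b sKO libraries). The other 4, *Ptprc*, *Csf1r*, *Adgre1* and *Lyz2*, were absent from the listed genes and have no values here. The paper describes a filter that drops transcripts of low mean level, under 0.5. *Tek* was listed with TSS means of 0.48 RPM in Ctrl and 0.22 RPM in Kmt5b sKO libraries, so absence alone does not give a level. The macrophage content was not tested, and *Cd68* alone does not give it. The 4 Schwann cell markers summed to 8.75 to 11.7 TPM in Ctrl and 15.8 to 25.8 TPM in Kmt5b sKO libraries, where *Sox10* was called higher in the gene body (log2 fold change 1.56). Against these, the 9 licensing genes summed to 212 to 222 TPM in Ctrl and 149 to 177 TPM in Kmt5b sKO libraries.

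The genes whose gene body profile over the 6 libraries was closest to a member were found from the root mean square difference of log2 values centred on each gene's mean. For *Orc1* these were *Nfib* (0.084), *Dtl* (0.099) and *Mms22l* (0.10). For *Cdc6* they were *Zfp367* (0.065), *Prim1*, the small primase subunit (0.073), and *Ticrr* (0.080). Those of *Gmnn* were the centromere protein genes *Cenpl* (0.18) and *Cenpk* (0.20), and *Faap24* (0.20). For *Cdt1* they were *Gm4952* (0.13), *Klf11* (0.13) and *Aldoc* (0.13), genes that share its low value in Kmt5b sKO replicate 1. *Gm4952* had only 0.10 TPM in that library and 0.81 TPM at most, so its likeness depends on the 0.5 added before the log. Among the members the closest pair was *Orc3* and *Orc4* (0.091), and *Cdc6* was closest to *Gmnn* (0.21) and *Orc1* (0.23). All of these genes share the 6 libraries and their depth, and the likeness is a description.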

How the data were processed

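PRO-seq of 3 Ctrl and 3 Kmt5b sKO MuSC samples was analysed. The authors trimmed reads (Trimmomatic 0.39), aligned them to GRCm38 (STAR 2.6.1d), removed duplicates (Picard 2.18.16; versions per the submitters' processing notes), and counted sense reads in 1 isoform of each gene. Deposited values, as computed by the authors, are TPM for the gene body and reads relative to a total of TSS reads, written here as RPM, for the first 400 nt. Their methods name TPM for both, which is the same scale for regions of 1 length. The tests had been planned for TPM, and the same test was used. Genes on X and Y or with a mean under 0.5 in either region were left out. The values, as log2(value + 0.5), and the log2 pausing index without a pseudocount were tested with limma 3.58.1 (lmFit, eBayes with trend, genotype only) in R 4.3.3. Whole reads came out for 100% of low values (within 0.1 read) and were tested with edgeR 4.0.16 and DESeq2 1.42.0. Positions are from the data and, for 14528 of 14546 gene identifiers, on the same chromosome of GENCODE M21; promoter windows are from RefSeq. A further scaling used the uniquely mapped reads per library that the study lists. The tests were tried on simulated data. All members are named, and from each list at most 4 of the genes called, by size of change; the *Skp1a* symbol stood for *Skp1*, and *Sox10*, *Myod1*, *Pax7*, *Myog*, *Col3a1*, *Cd68*, the ORC partners, the endothelial genes and the ligase subunits were named after their values were seen. The members and lists were chosen with earlier results of these data known. The alternatives tried are given in the closing section. All columns of values belonged to a sample of the series.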

Additional observations from a re-analysis of the deposited data

How the results depend on the processing

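The counts of licensing genes called in the gene body (3), the TSS region (1) and the pausing index (0) and the 3 medians were recomputed under each alternative. In the gene body 0 members passed at a limma adjusted p under 0.05. When values were scaled to the uniquely mapped reads 9 passed, as did 10794 of all 12451 genes, and the members' median was -1.66. Without the filter on low values 2 passed, as *Orc1* did not (adjusted p = 0.10, limma). With median scaling or quantile normalization 4 passed, as *Orc6* did (limma adjusted p = 0.088 and 0.080). With 1 library left out the count lay between 0 and 3. In the TSS region 0 passed without the filter on low values or with eBayes without trend. There 8 passed with the scaling to the uniquely mapped reads, as did 8858 of all 12451 genes, and the members' median was -1.62. The TSS count lay between 0 and 1 with 1 library left out. Over libraries left out the median of the pausing index lay between -0.0095 and 0.27. The causes were not tested. With the replicate number as a block, 0 members passed in the gene body and 0 in the TSS region, as did 0 of all genes. Libraries of the same number did not deviate together (correlations of -0.15, -0.17 and -0.33), and the main tests did not pair them. With 3 libraries per genotype these correlations cannot decide whether libraries of 1 number were prepared together, and the labels do not say.

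The sign of an estimate turned in the following cases. With 1 library left out, *Orc4* in the gene body ranged from -0.077 to 0.084 (0.072 without Ctrl replicate 3, and the highest without Kmt5b sKO replicate 3), and *Orc5* from -0.34 to 0.018. *Orc4* in the TSS region was -0.046 with median scaling, -0.037 with quantile normalization, -0.049 with edgeR and -0.058 with DESeq2, and ranged from -0.16 to 0.19 with 1 library left out (-0.0081 and -0.026 without Kmt5b sKO replicate 1 or 2). With the scaling to the uniquely mapped reads the TSS values of *Orc3*, *Orc4* and *Orc5* were -0.76, -1.13 and -1.002. The pausing index of *Orc4* was -0.015 with median scaling and with quantile normalization and -0.0046 from recovered reads per nt. With 1 library left out, the index of *Orc4* ranged from -0.24 to 0.27, that of *Cdc6* from -0.20 to 0.25, that of *Orc1* from -0.070 to 0.68, that of *Orc6* from -0.0095 to 0.38 and that of *Cdt1* from -0.32 to 0.069. Over all tested genes the calls in the gene body numbered 372, against 748 with edgeR, 1295 with DESeq2, 10794 with the scaling to the uniquely mapped reads and 0 to 836 with 1 library left out. In the TSS region they numbered 207, against 8858 with that scaling, 0 without the filter or trend, and 1 to 408 with 1 library left out. Depth limits the TSS values, with as few as 18 reads behind a value of *Orc1*.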
